A study of Mus musculus with 5480 samples.

Results

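Transforming growth factor beta (TGF-beta) signalling was followed through 10 genes, its 3 ligands (Tgfb1, Tgfb2, Tgfb3), its 3 receptors (Tgfbr1, Tgfbr2, Tgfbr3) and the 4 latent TGF-beta binding proteins (Ltbp1, Ltbp2, Ltbp3, Ltbp4), in single mesenchymal cells of the mouse lung. They were taken by symbol from a table of 18072 genes, and all 10 were present. The cells came from distal lung, had been sorted by flow cytometry and were sequenced in plates with Tn5 chemistry, 5480 cells in all. They came from 10 mice, 1 female and 1 male in each of 5 groups: embryonic day 18.5 (E18.5) and days 1, 7 and 21 after birth (P1, P7, P21), all kept in normal air, and day 7 under hyperoxia. The labels name no strain, genotype, oxygen level or length of exposure. The authors had assigned each cell to 1 of 16 subtypes, and those names were kept. Throughout, the first value of a pair belongs to the female and the second to the male, and a level is in CPM, the usual library-scaled count, a gene's reads scaled to the total reads of the summed cells of 1 mouse and subtype. A subtype of a mouse was used where it had at least 10 cells, which gave 64 such summed libraries.

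TGF-beta is made as a precursor whose propeptide stays wrapped around the mature ligand, and this latent complex is usually bound covalently to an LTBP that is tethered to the extracellular matrix. Integrins, thrombospondin or proteases release the ligand, which then binds TGFBR2, the constitutively active receptor kinase that recruits and phosphorylates TGFBR1, which passes the signal to SMAD proteins. TGFBR3 (betaglycan) is a co-receptor without a kinase that presents ligand, TGF-beta2 above all. In the developing lung the pathway acts on branching, on elastin and collagen deposition, on smooth muscle and on the septation that forms alveoli.

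In the mouse assembly GRCm38 (GENCODE M21 annotation), the ligand genes lie at chr7:25687002-25705077 on the plus strand (Tgfb1), chr1:186622792-186705989 on the minus strand (Tgfb2) and chr12:86056745-86079041 on the minus strand (Tgfb3). The receptor genes lie at chr4:47353222-47414931 on the plus strand (Tgfbr1), chr9:116084293-116175360 on the minus strand (Tgfbr2) and chr5:107106570-107289629 on the minus strand (Tgfbr3). The LTBP genes lie at chr17:75005568-75392512 on the plus strand (Ltbp1), chr12:84783212-84876532 on the minus strand (Ltbp2), chr19:5740904-5758532 on the plus strand (Ltbp3) and chr7:27305136-27337692 on the minus strand (Ltbp4). Reads were counted over whole genes, so isoforms from different starts of 1 gene are not separated.

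Promoter sequences are shown for Tgfb2, Ltbp1, Ltbp2 and Ltbp4, 4 members with calls between subtypes or ages. They are RefSeq sequences (build GRCm38.p6), 5′ to 3′ on the gene's own strand, and hold the 250 bases before the annotated start. Bases that another transcript of the gene includes were left out, which shortened Ltbp2 to 209 and Ltbp4 to 170 bases. The RefSeq table matched 8 of the 10 members, all but Tgfb3 and Tgfbr3, so that Tgfb3, which had more calls than Tgfb2, could not be shown. Capitals mark exact matches on either strand. The motifs searched were the TATA box (TATAAA), the CCAAT box (CCAAT, or ATTGG on the other strand) and the E-box (CACGTG). The cyclic AMP response element (TGACGTCA), the AP-1 site (TGANTCA) and the TEAD site (CATTCC) were searched as well. The SMAD box (CAGAC) and the GC box (GGGCGG) were searched and left in lower case.
Tgfb2, chr1:186705990-186706239: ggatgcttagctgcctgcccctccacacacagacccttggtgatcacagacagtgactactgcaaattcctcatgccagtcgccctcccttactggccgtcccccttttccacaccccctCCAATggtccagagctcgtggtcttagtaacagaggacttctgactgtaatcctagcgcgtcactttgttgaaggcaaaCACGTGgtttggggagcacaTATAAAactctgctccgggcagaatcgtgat
Ltbp1, first of 2 starts, chr17:75005279-75005528: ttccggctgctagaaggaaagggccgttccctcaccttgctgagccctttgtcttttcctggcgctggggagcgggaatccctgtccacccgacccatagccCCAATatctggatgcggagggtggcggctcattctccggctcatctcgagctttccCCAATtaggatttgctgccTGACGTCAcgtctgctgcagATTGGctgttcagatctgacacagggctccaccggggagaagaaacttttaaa
Ltbp2, chr12:84876533-84876741: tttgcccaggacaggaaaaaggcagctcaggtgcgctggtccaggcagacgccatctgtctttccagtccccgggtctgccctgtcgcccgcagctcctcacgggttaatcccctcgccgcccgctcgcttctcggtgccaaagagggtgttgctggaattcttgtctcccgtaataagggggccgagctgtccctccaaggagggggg
Ltbp4, first of 3 starts, chr7:27337693-27337862: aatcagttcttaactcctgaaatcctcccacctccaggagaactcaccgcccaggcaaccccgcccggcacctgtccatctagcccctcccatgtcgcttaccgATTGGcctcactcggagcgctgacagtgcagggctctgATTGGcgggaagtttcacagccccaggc
The Tgfb2 sequence holds a TATA box from base -31 to base -26 before the start, an E-box from -51 to -46 and a CCAAT box from -130 to -126. Of all 32851 RefSeq mouse promoters of 250 bases, 12.4% hold the TATA letters, 6.02% the E-box and 33.8% a CCAAT box. The Ltbp1 sequence holds 3 CCAAT boxes and, from -73 to -66, the cyclic AMP response element, which 1.55% of all promoters hold. The Ltbp4 sequence holds 2 CCAAT boxes, and the Ltbp2 sequence none of the capitalised motifs. AP-1 letters occur in 6.75% and TEAD letters in 12.6% of all promoters, and in none of the 4 shown. The SMAD box, in 42.2% of all promoters, occurs 2 times in the Tgfb2 and in the Ltbp2 sequence, and 1 time in that of Ltbp1. The GC box, in 32.7%, occurs from -133 to -128 in the Ltbp2 sequence and from -204 to -199 and -190 to -185 in that of Ltbp4. A match describes the letters and not a bound site.

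Median depth per cell ranged from 521125 to 1084627 reads over the 10 mice, and the median number of genes per cell from 2061 to 5545, with the hyperoxia mice (4268 and 5545) above the P7 mice in normal air (2988 and 2963). Apart from 9 CD31-sorted cells of the hyperoxia male, which shared a run with cells of 4 mice in normal air, the hyperoxia mice were sequenced in runs that held no other mouse. Hyperoxia and sequencing run therefore cannot be told apart. In normal air the mesenchymal sort of all males shared a run. The females of E18.5 and P1 shared another, and those of P7 and P21 were in further, separate runs. Run thus went with sex in normal air, and with age among the females from P1 on. Its part in the comparisons between ages was not tested. Apart from the myofibroblast list, the defining markers of each subtype had their highest summed level in the subtype of that name in nearly all mice. The myofibroblast list was higher in early airway smooth muscle in all 6 mice with enough myofibroblasts. It summed to 10836 to 15269 CPM there, against 3971 to 8998 in myofibroblasts. The other exceptions were the vascular smooth muscle list in the P1 male and the alveolar list in the E18.5 male. The E18.5 early alveolar fibroblasts were 14 and 24 cells, and in the female they carried 1031 CPM over 6 epithelial markers (1001 of it Sftpc, with 4 of the 6 at 0) and 248 CPM over the immune markers. Mesothelial markers (Msln, Upk3b, Wt1) summed to 211 and 0.0326 CPM in the P7 early adventitial fibroblasts and to 561 and 618 in those under hyperoxia. The labels mention no molecular identifiers, and intervals on reads therefore cover counting error only. Group tests rest on 1 female and 1 male mouse.

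Tgfb2 and Tgfb3, and not Tgfb1, made up nearly all of the ligand RNA of these cells. Per kilobase of exon, which allows genes to be compared, the median level over the 64 libraries was 27.6 CPM per kb for Tgfb2, 38.9 for Tgfb3 and 0.135 for Tgfb1, and the highest Tgfb1 level was 4.64. Tgfb1 reads were found in 2.38% of cells in the median library when every cell was thinned to 100000 reads, and in at most 17.8%. Without thinning the median was 4.63%. The highest Tgfb1 level, 23.4 CPM in the P7 male's pericytes, came to 90.2% from 1 of 31 cells. Among the receptors Tgfbr2 led with a median of 18.0 CPM per kb, followed by Tgfbr3 (10.0) and Tgfbr1 (2.89). Ltbp4 and Ltbp2 led the LTBPs with medians of 44.4 and 43.0 CPM per kb, above Ltbp1 (19.0) and Ltbp3 (13.0). With thinned cells, Ltbp4 was read in 76.2% of cells in the median library, Tgfb2 in 53.4%, Tgfbr2 in 52.4% and Tgfbr1 in 17.2%, shares that also depend on a gene's length.

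**Figure D1:**
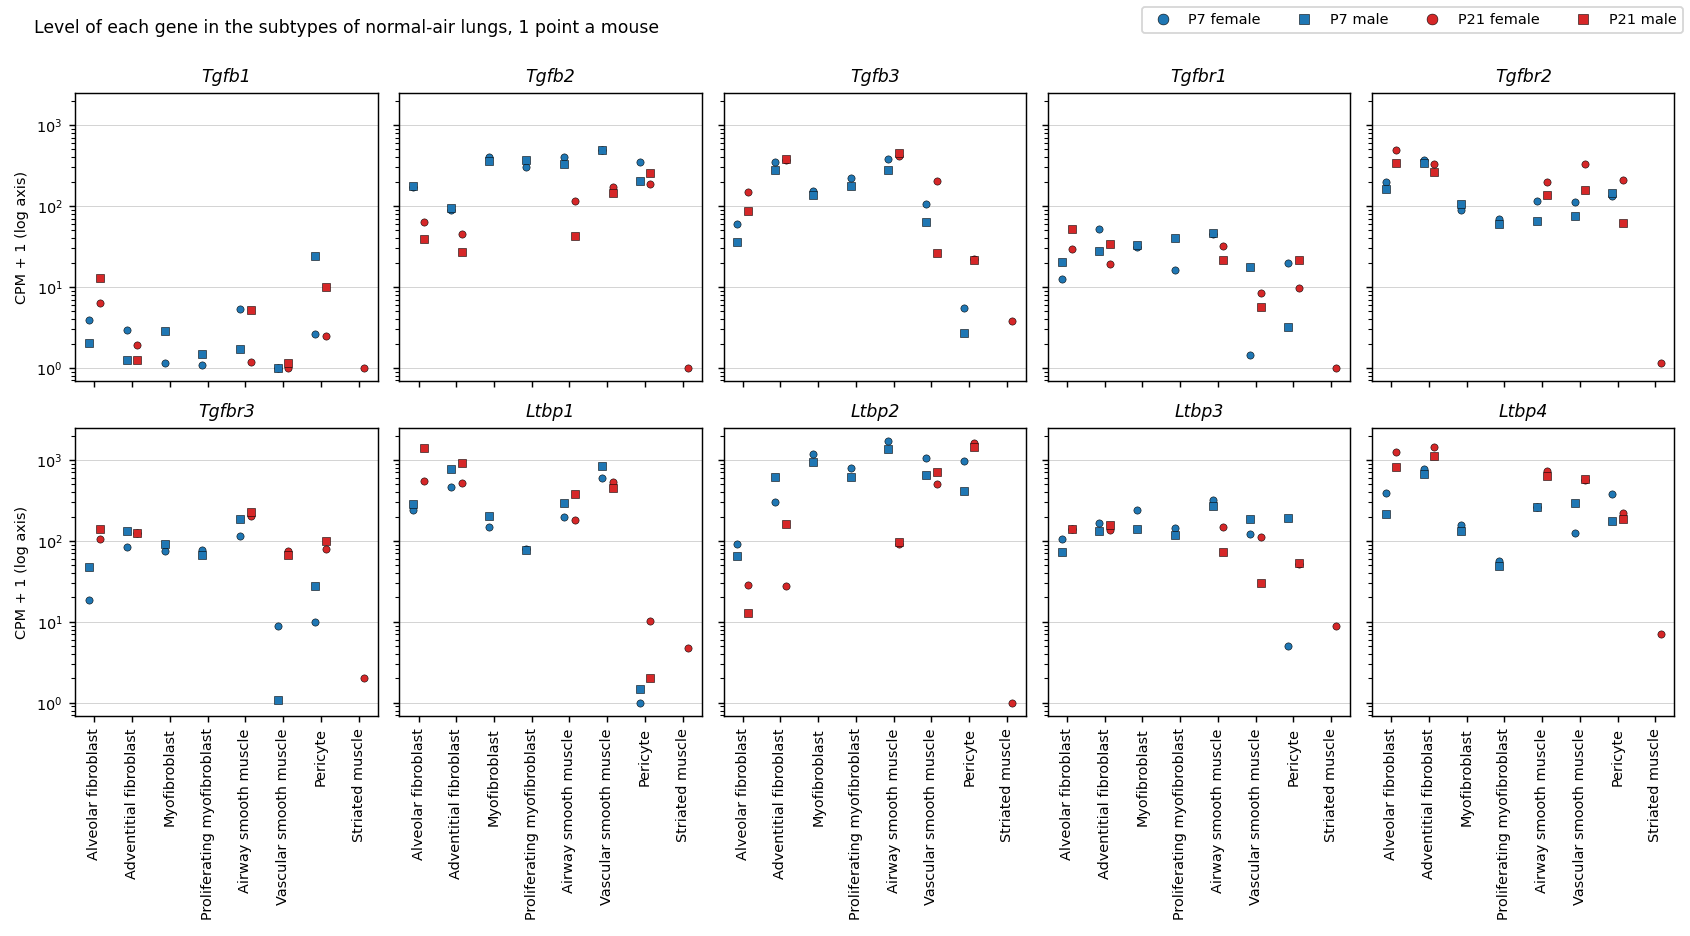
Level of each of the 10 genes (CPM + 1, log axis) by subtype in normal air at P7 (blue) and P21 (red), 1 point a mouse, circles for females and squares for males, with early and later subtypes of a cell type in 1 column. Ltbp1 is at or near 0 in pericytes at P7, and striated muscle (16 cells of 1 mouse) lies between 0 and 8.0 CPM for all 10 genes.

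The ligands divided the P7 mesenchyme between them, in the 7 subtypes with enough cells in both mice. Tgfb2, the isoform most linked to heart, vessel and lung morphogenesis, was highest in vascular smooth muscle (485 and 487 CPM), then in myofibroblasts (406 and 356), early airway smooth muscle (399 and 331), proliferating myofibroblasts (299 and 372) and pericytes (350 and 203). It was lower in early alveolar fibroblasts (171 and 177) and lowest in early adventitial fibroblasts (87.7 and 94.7). The mice of neighbouring subtypes overlapped among the myofibroblasts, airway muscle, proliferating myofibroblasts and pericytes, while the lowest subtypes stood apart from the rest and from each other. Tgfb3, the isoform required for palate fusion and lung maturation, had another order: early airway smooth muscle (382 and 282) and early adventitial fibroblasts (350 and 282) were highest, proliferating myofibroblasts (222 and 175) and myofibroblasts (155 and 135) were intermediate, and pericytes (4.43 and 1.72) were lowest. Vascular smooth muscle (104 and 62.8) and early alveolar fibroblasts (58.7 and 34.8) lay between.

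Both isoforms differed between the 7 subtypes of P7 by edgeR's quasi-likelihood F test, adjusted over all genes by Benjamini-Hochberg (Tgfb2 adjusted p = 0.0166, Tgfb3 adjusted p = 2.18e-04). At P7, 6 of the 10 members passed, beside 7.76% of all genes tested. The labels give map (tSNE) coordinates of the same cells beside the authors' subtype names, so the names rest on these data, and a count of calls is read only against that share. Each subtype was also set against the mean of the others, taken over log2 levels, which a subtype near 0 lowers strongly. Early adventitial fibroblasts had less Tgfb2 (log2 fold change -1.71, SE 0.283, adjusted p = 0.00657) and more Tgfb3 (2.32, SE 0.235, adjusted p = 4.07e-04). Early airway smooth muscle had more Tgfb3 (2.20, SE 0.236, adjusted p = 9.89e-04), and pericytes had less (-5.61, SE 0.421, adjusted p = 3.73e-05). Vascular smooth muscle had more Tgfb2 (1.14, SE 0.225, adjusted p = 0.0195).

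As the mean share over both mice, Tgfb3 supplied 85.2% of the ligand RNA per kilobase of P7 early adventitial fibroblasts and 60.5% of that of early airway smooth muscle. Tgfb2 supplied 92.3% in pericytes, 77.5% in vascular smooth muscle, 68.4% in early alveolar fibroblasts and 60.5% in myofibroblasts. At P21 the share of Tgfb3 stood at 94.7% in adventitial fibroblasts, 90.1% in airway smooth muscle and 76.3% in alveolar fibroblasts. Tgfb2 led the P21 pericytes (82.9% in the female and 85.0% in the male), while in P21 vascular smooth muscle the mice differed, with 33.1% of Tgfb2 in the female and 77.1% in the male. The level of Tgfb3 at P21 was 415 and 448 CPM in airway smooth muscle and 367 and 375 in adventitial fibroblasts, without overlap of the mice, and 149 and 85.3 in alveolar fibroblasts.

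**Figure D2:**
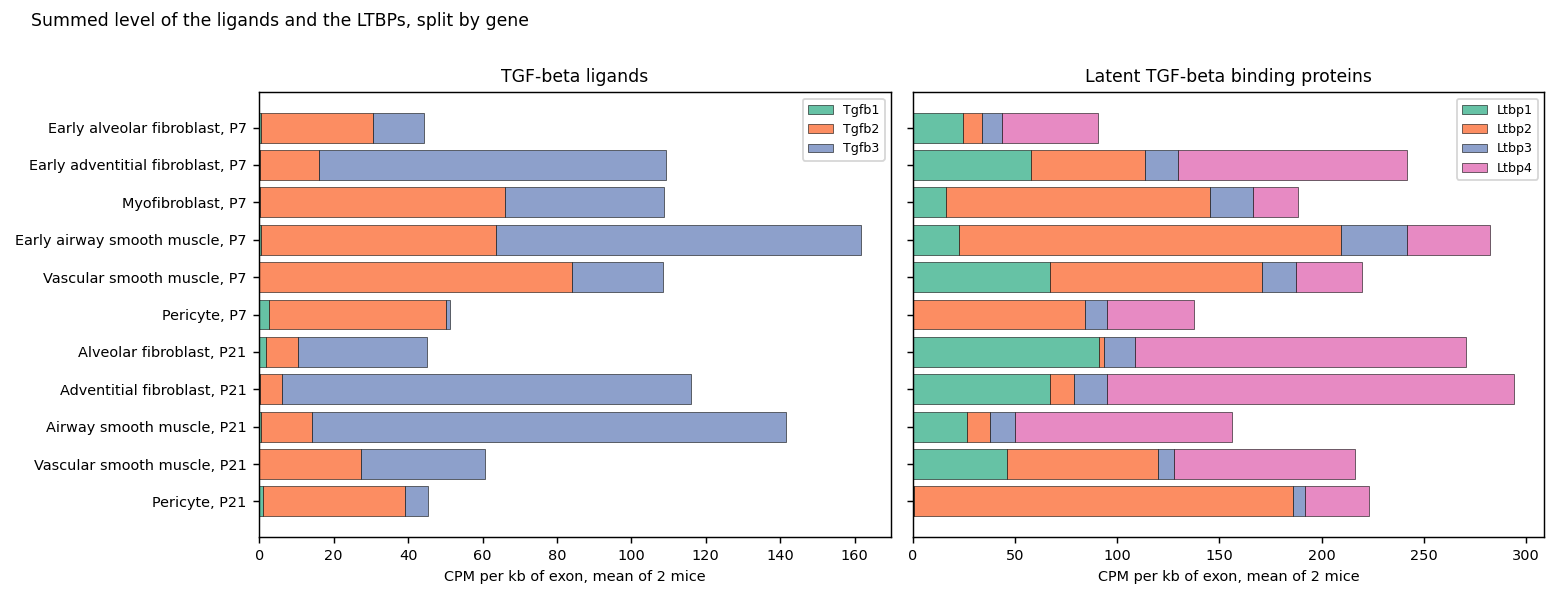
Summed level of the 3 ligands (left) and the 4 LTBPs (right) by subtype at P7 and P21 in normal air, in CPM per kilobase of exon, mean of 2 mice, with the colours splitting each bar by gene. Tgfb3 takes most of the ligand bar in P7 early adventitial fibroblasts and little of it in pericytes, and the Ltbp2 part of the airway smooth muscle bar is large at P7 (65.9% as the mean share of the mice) and small at P21 (7.25%).

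The signalling receptor Tgfbr2 was highest in early adventitial fibroblasts at P7 (366 and 344 CPM), followed by early alveolar fibroblasts (196 and 161). Pericytes (131 and 146), early airway smooth muscle (116 and 64.3), vascular smooth muscle (112 and 75.1) and myofibroblasts (88.9 and 106) followed, and proliferating myofibroblasts (68.6 and 58.6) were lowest. The adventitial and alveolar fibroblasts stood above all other subtypes without overlap, while the muscle subtypes overlapped. Tgfbr2 differed between P7 subtypes by edgeR's F test (adjusted p = 0.00724), and early adventitial fibroblasts exceeded the mean of the others (log2 fold change 1.89, SE 0.228, adjusted p = 0.00122). Tgfbr2 made up 75.3% of the receptor RNA per kilobase of the P7 early alveolar fibroblasts. At P21 it was highest in alveolar fibroblasts (499 and 343) and did not differ between subtypes past the threshold.

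Tgfbr1, the kinase that carries the signal onward, had its highest P7 levels in early airway smooth muscle (44.6 and 45.3 CPM) and early adventitial fibroblasts (50.6 and 26.9) and its lowest in vascular smooth muscle (0.453 and 16.5). Each subtype in that order overlapped with the next. The co-receptor Tgfbr3 was highest in early airway smooth muscle (114 and 187) and early adventitial fibroblasts (81.9 and 133), whose mice overlapped, and lowest in vascular smooth muscle (7.81 and 0.0742). Neither Tgfbr1 nor Tgfbr3 differed between subtypes past the threshold at any of the 4 ages, and the same held for Tgfb1 and Ltbp3. In P7 early airway smooth muscle, 21.3% and 11.1% of thinned cells had reads of both Tgfbr1 and Tgfbr2, while 97.3% and 84.1% had reads of a ligand together with an LTBP. At P21 Tgfbr3 was again highest in airway smooth muscle (199.7 and 229), above every other subtype without overlap.

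Of the LTBPs, Ltbp1, Ltbp2 and Ltbp4 differed between P7 subtypes by edgeR's F test (adjusted p = 7.03e-04, 0.00749 and 0.0170). Ltbp1, which anchors latent TGF-beta to fibrillin and fibronectin, was highest at P7 in vascular smooth muscle (601 and 831 CPM) and early adventitial fibroblasts (465 and 775), whose mice overlapped. It was intermediate in early alveolar fibroblasts (237 and 285), early airway smooth muscle (196 and 291) and myofibroblasts (146 and 201), lower in proliferating myofibroblasts (78.9 and 77.0), and 0 and 0.496 in pericytes. Pericytes, contractile cells wrapped around capillaries, had Ltbp1 reads in 0 of 26 and 3 of 31 cells at P7 and in 5 of 70 and 4 of 75 at P21. Their Ltbp1 was not near 0 at every age, with 1.98 and 2.48 CPM at E18.5 but 60.0 and 37.5 at P1. None of these steps between ages passed. Against the mean of the other subtypes, their Ltbp1 was lower at P7 (log2 fold change -10.1, SE 0.858, adjusted p = 9.15e-05) and at P21 (-6.81, SE 1.13, adjusted p = 0.0127). The P7 fold change is a fitted value against a library at 0 and gives no bound. Vascular smooth muscle (3.47, SE 0.361, adjusted p = 5.29e-04) and early adventitial fibroblasts (3.17, SE 0.365, adjusted p = 8.84e-04) lay above the mean of the others at P7. Early alveolar fibroblasts did too (1.63, SE 0.396, adjusted p = 0.0443). That mean is taken over log2 levels, so the pericytes near 0 lower it and enlarge these fold changes. In CPM the early alveolar fibroblasts lay below both vascular smooth muscle and early adventitial fibroblasts.

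Ltbp2, an elastic fibre protein that does not bind latent TGF-beta covalently, was highest in early airway smooth muscle (1706 and 1350 CPM at P7). Myofibroblasts (1182 and 932), vascular smooth muscle (1052 and 645), pericytes (974 and 407) and proliferating myofibroblasts (806 and 611) followed, with overlapping mice. Early adventitial fibroblasts (297 and 613) came next, and early alveolar fibroblasts (91.6 and 64.0) stood alone at the bottom. Early airway smooth muscle exceeded the mean of the others (log2 fold change 1.54, SE 0.283, adjusted p = 0.0180), and early alveolar fibroblasts lay below it (-3.45, SE 0.419, adjusted p = 0.00123). At P21 the order was another: pericytes held 1607 and 1433 CPM, vascular smooth muscle 510 and 701, and the other 3 subtypes between 11.8 and 162. The P21 pericytes exceeded the mean of the others by 3.84 on the log2 scale (SE 0.496, adjusted p = 0.00357). The P21 alveolar fibroblasts lay below it (-3.81, SE 0.762, adjusted p = 0.0430), a call that was lost when at least 20 cells were required (adjusted p = 0.0817).

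Ltbp4, needed for elastic fibre assembly in the lung, was highest in early adventitial fibroblasts at P7 (776 and 666 CPM) and lowest in proliferating myofibroblasts (55.7 and 47.4). Early alveolar fibroblasts (395 and 211), pericytes (376 and 173), early airway smooth muscle (262 and 262), vascular smooth muscle (125 and 291) and myofibroblasts (156 and 131) lay between, with overlapping mice. Early adventitial fibroblasts exceeded the mean of the others (log2 fold change 2.11, SE 0.324, adjusted p = 0.00436), and proliferating myofibroblasts lay below it (-2.54, SE 0.465, adjusted p = 0.0167). At P21 adventitial fibroblasts (1447 and 1131) were again above the mean of the others (1.31, SE 0.217, adjusted p = 0.0188) and pericytes (220 and 184) below it (-2.18, SE 0.276, adjusted p = 0.00321). Ltbp3, which pairs with latent TGF-beta in bone and lung, ranged at P7 from 319 and 270 CPM in early airway smooth muscle to 104 and 72.3 in early alveolar fibroblasts, and the pericytes' mice lay far apart (4.03 and 188).

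The share of all genes that passed the same P7 comparison with the mean of the others was 5.24% for early adventitial fibroblasts (5 of 10 members), 3.03% for early airway smooth muscle (2 members) and 4.84% for early alveolar fibroblasts (2 members). It was 0.927% for myofibroblasts (0 members), 7.34% for pericytes (2 members), 3.02% for proliferating myofibroblasts (2 members) and 4.27% for vascular smooth muscle (2 members). Proliferating myofibroblasts passed for Tgfb3 (1.33, SE 0.250, adjusted p = 0.0189) beside Ltbp4. At P21 it was 2.4% for adventitial fibroblasts (1 member), 2.2% for alveolar fibroblasts (1 member) and 4.72% for pericytes (4 members). Airway smooth muscle (2.12%) and vascular smooth muscle (1.7%) had 0 members at P21. The fourth member in P21 pericytes was Tgfb3 (-3.39, SE 0.726, adjusted p = 0.0358). By the F test over all subtypes of an age, 2 of 10 members passed at P21 (Ltbp2 and Ltbp4, beside 4.06% of all genes) and 3 at P1 (Ltbp1, Ltbp2 and Ltbp4, beside 3.62%). At E18.5, 3 passed (Tgfb3, Ltbp1 and Ltbp2, beside 2.43%), and Tgfb3 lost its call there without the early alveolar fibroblasts (adjusted p = 0.053).

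At E18.5 the early adventitial fibroblasts had the highest mean Tgfb3 (83.8 and 358 CPM) and Ltbp4 (804 and 1053) of the 6 subtypes with enough cells in both mice. Ltbp4 in the contractile precursor (481 and 474) and the fibroblast precursor (411 and 403) lay below both of their mice. Ltbp1 was highest in early alveolar fibroblasts (393 and 354), followed by early adventitial fibroblasts (279 and 323), the contractile precursor (236 and 148) and the fibroblast precursor (152 and 152). The early alveolar libraries of that age are the small ones described above (14 and 24 cells), with epithelial and immune markers in the female. The E18.5 precursor of myofibroblasts and smooth muscle held 468 and 418 CPM of Ltbp2, against 164 and 423 in early adventitial fibroblasts and 49.1 and 30.4 in the fibroblast precursor. Its Tgfb3 was 73.1 and 128, against 12.4 and 20.0 in the fibroblast precursor. Mice of the precursors did not overlap in either gene, with the contractile precursor higher in both, and it also had the highest mean Ltbp3 of that age (380 and 303). Pericytes of that age already had Ltbp2 (269 and 179) and little Ltbp3 (3.80 and 0.892). The precursors were not tested against each other.

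Between ages, 5 of 158 tests of a member passed in 16 comparisons of a cell class with the next age, by edgeR's quasi-likelihood test with Benjamini-Hochberg adjustment. An unadjusted p under 0.05 was found in 40, a count not set beside the share of all genes and not read as a result. For these comparisons the early and later subtypes of alveolar, adventitial and airway cells were joined into classes. The change that passed under all 18 alternative settings was the fall of Ltbp2 in airway smooth muscle from P7 to P21. Its levels were 777 and 986 CPM at P1, 1706 and 1350 at P7, and 89.0 and 88.7 at P21. Both P21 mice lay far below every younger mouse. Ltbp2 fell by 3.74 on the log2 scale (SE 0.364, adjusted p = 0.00379), with adjusted p between 1.30e-22 and 0.0275 over the alternatives. The share of thinned cells with an Ltbp2 read went from 97.3% and 93.7% at P7 to 17.2% and 20.4% in the P21 airway smooth muscle subtype.

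In the same cells Ltbp4 rose, from 262 and 262 CPM at P7 to 721 and 636 at P21, with both P21 mice above both P7 mice (log2 fold change 1.73, SE 0.330, adjusted p = 0.0476). That call was lost with only the mice of the contrast in the fit (adjusted p = 0.157) and when any 1 of 8 mice was left out, all but those of E18.5, which have no such library (adjusted p up to 0.443). Tgfb2 stood at 120 and 39.0 CPM at P21 against 399 and 331 at P7 and missed the threshold (-1.93, adjusted p = 0.150). In that comparison 1.13% of all genes passed, and 8 of the 10 members had mice that did not overlap, 4 higher and 4 lower, against 46.2% of all genes. The median log2 fold change was 0.38 over the 10 members and -0.09 over all genes.

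**Figure D3:**
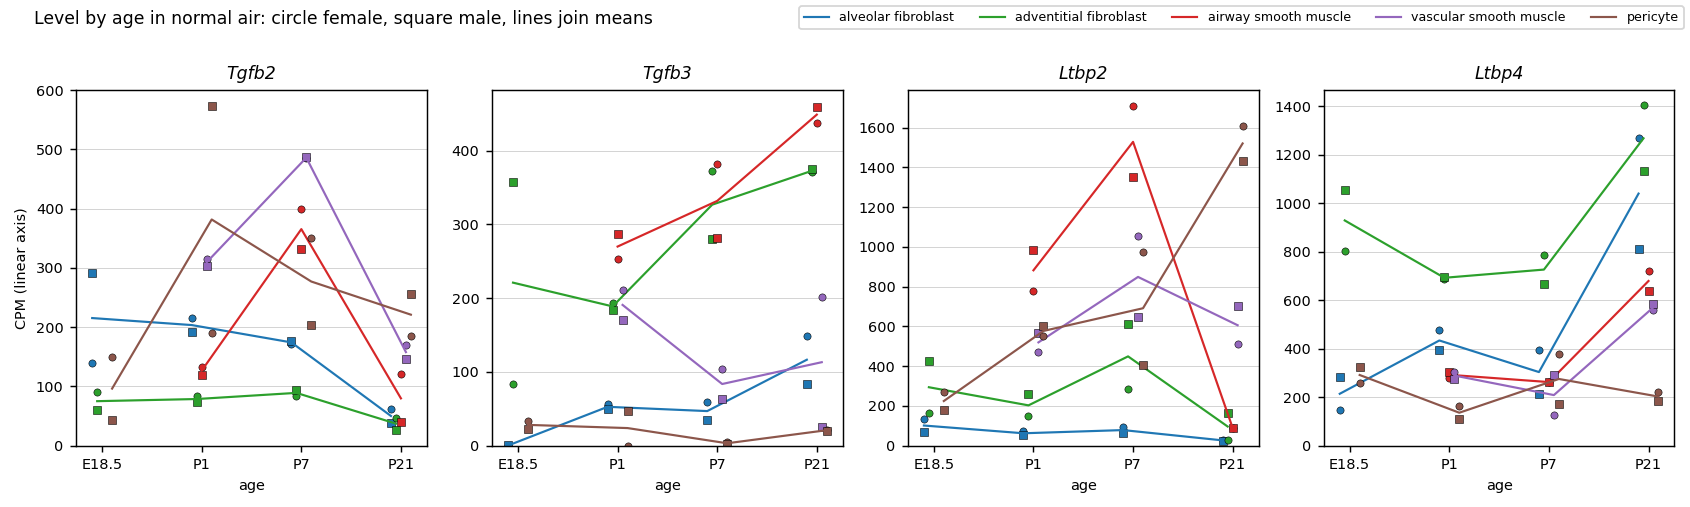
Level of Tgfb2, Tgfb3, Ltbp2 and Ltbp4 (CPM, linear axis) by age in normal air in 5 cell classes, with circles for females, squares for males and lines that join the means. In airway smooth muscle Ltbp2 ends at 89.0 and 88.7 CPM at P21, while pericytes end at 1607 and 1433.

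The myofibroblasts of P1 held less Ltbp4 (116 and 142 CPM) than the contractile precursor of E18.5 (481 and 474), with no overlap of mice. Ltbp4 fell by 1.82 on the log2 scale in that comparison (SE 0.316, adjusted p = 0.0357), in which 1.47% of all genes passed. That call was lost with only the mice of the contrast (adjusted p = 0.141), without the E18.5 female (0.283) or male (0.221), and without any 1 of the 4 mice of P7. Tgfbr3 in the same comparison went from 343 and 255 CPM to a mean of 97.9, short of the threshold (-1.55, SE 0.338, adjusted p = 0.0703). From P1 to P7, Tgfb2 of myofibroblasts went from 121 and 131 to 406 and 356 CPM, without overlap (1.54, SE 0.314, unadjusted p = 0.002, adjusted p = 0.458), and Ltbp2 from 255 and 544 to 1182 and 932 (1.41, adjusted p = 0.588). In that comparison 0% of all genes passed.

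In alveolar fibroblasts, Tgfb3 and Tgfbr1 were called higher at P1 than at E18.5, in a comparison in which 6.16% of all genes passed and the median log2 fold change of all genes was 1.35. Tgfb3 was 0 and 0.0737 CPM at E18.5 and 55.9 and 49.1 at P1 (log2 fold change 9.68, adjusted p = 0.0284), and Tgfbr1 0.320 and 0 against 27.4 and 16.6 (7.90, adjusted p = 0.0427). Each E18.5 level rests on 1 read, so that the CPM ratio was 861 with a 95% interval of 155 to 34011 for Tgfb3 and 343 with 61.5 to 13530 for Tgfbr1. Both calls were lost with only the mice of the contrast and when 8 of the mice were left out 1 at a time, with adjusted p up to 0.572 and 0.649. Tgfb1 had 0 reads at E18.5 and 902 at P1, and did not pass by edgeR's test (adjusted p = 0.134). With 3 reads put in place of 0 over both E18.5 mice, its CPM ratio was 8.42. That ratio is no bound on the difference between mice. The epithelial markers of these E18.5 libraries summed to 1031 and 25.9 CPM and the immune markers to 248 and 0.0737, and their part in the result was not tested. Against the fibroblast precursor of E18.5 as the earlier state, Tgfb3 of P1 alveolar fibroblasts was higher without passing (1.80, SE 0.474, adjusted p = 0.374), beside 0.125% of all genes that passed.

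From P7 to P21 the mice of alveolar fibroblasts did not overlap for any of the 10 members, 8 higher and 2 lower, against 44.8% of all genes, and 0 of 10 passed, beside 0.0702% of all genes. Tgfbr2 went from 196 and 161 CPM to 499 and 337 (1.52, adjusted p = 0.474), Ltbp4 from 395 and 211 to 1267 and 810 (2.07, adjusted p = 0.503) and Ltbp1 from 237 and 285 to 549 and 1535 (2.28, SE 0.533, adjusted p = 0.405). Tgfb2 went from 171 and 177 to 62.1 and 37.6 (-1.50, adjusted p = 0.671), and Ltbp2 from 91.6 and 64.0 to 27.6 and 24.3 (-1.25). In the P21 male, 5 cells labelled early alveolar fibroblast gave 769 of its 1473 Ltbp2 reads, and the 69 alveolar fibroblasts without them held 11.8 CPM. Of the 10 members, 5 had an unadjusted p under 0.05, a count not set beside the share of all genes. The median log2 fold change was 1.65 over the members and -0.04 over all genes.

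In the other comparisons between ages no member passed. The share of all genes that passed was 0% for alveolar fibroblasts from P1 to P7, and 0.17%, 0% and 0.124% for adventitial fibroblasts over the 3 steps. It was 0% for airway smooth muscle from P1 to P7, 0% and 0.0886% for vascular smooth muscle from P1 to P7 and on to P21, and 0.042%, 0% and 0.0504% for pericytes over the 3 steps. Adventitial fibroblasts had 29.6 and 162 CPM of Ltbp2 at P21 against 283 and 614 at P7 (-2.22, adjusted p = 0.279). Pericytes had 1607 and 1433 CPM of Ltbp2 at P21 against 974 and 407 at P7 (1.25, adjusted p = 0.955). The share of their thinned cells with an Ltbp2 read was 56% and 66.7% at P7 and 92.8% and 76.4% at P21.

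Hyperoxia, a standard model of arrested alveolar growth in the newborn, was compared with normal air at P7 in 5 classes. By edgeR's quasi-likelihood test 0 of 49 tests of a member passed. An unadjusted p under 0.05 was found in 9, a count also not set beside the share of all genes. The share of all genes that passed was 0% in alveolar fibroblasts, 0% in adventitial fibroblasts, 0% in myofibroblasts, 0% in airway smooth muscle and 0% in vascular smooth muscle. With DESeq2, 4 of the 49 passed: Ltbp2 in alveolar fibroblasts, beside 1.54% of all genes, Tgfbr2 and Ltbp1 in adventitial fibroblasts, beside 2.54%, and Ltbp1 in myofibroblasts, beside 2.81%.

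Ltbp1 was lower under hyperoxia, without overlap of the mice, in 4 of the 5 classes. In myofibroblasts it was 146 and 201 CPM in normal air and 44.2 and 30.2 under hyperoxia, with no overlap (log2 fold change -2.21, SE 0.451, unadjusted p = 0.002, adjusted p = 0.410 with edgeR and 8.07e-04 with DESeq2). In adventitial fibroblasts it was 504 and 782 against 266 and 208 (-1.59, SE 0.382, unadjusted p = 0.002, adjusted p = 0.492 with edgeR and 0.0138 with DESeq2). In alveolar fibroblasts it was 237 and 285 against 70.0 and 81.4 (-1.92, SE 0.522, unadjusted p = 0.006, adjusted p = 1.0). In airway smooth muscle it was 196 and 291 against 170 and 188 (-0.42), also without overlap, and in vascular smooth muscle 601 and 831 against 651 and 373 (-0.81), with overlap. In edgeR the myofibroblast value passed with only the mice of the contrast (adjusted p = 0.0434), without the P1 female (0.00842) and without the P1 male (3.36e-04). The share of thinned myofibroblasts with an Ltbp1 read was 27.6% and 25.3% in normal air and 34.5% and 35.6% under hyperoxia, while the median number of reads in a cell with a read was 37 and 38 against 9.5 and 5.

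**Figure D4:**
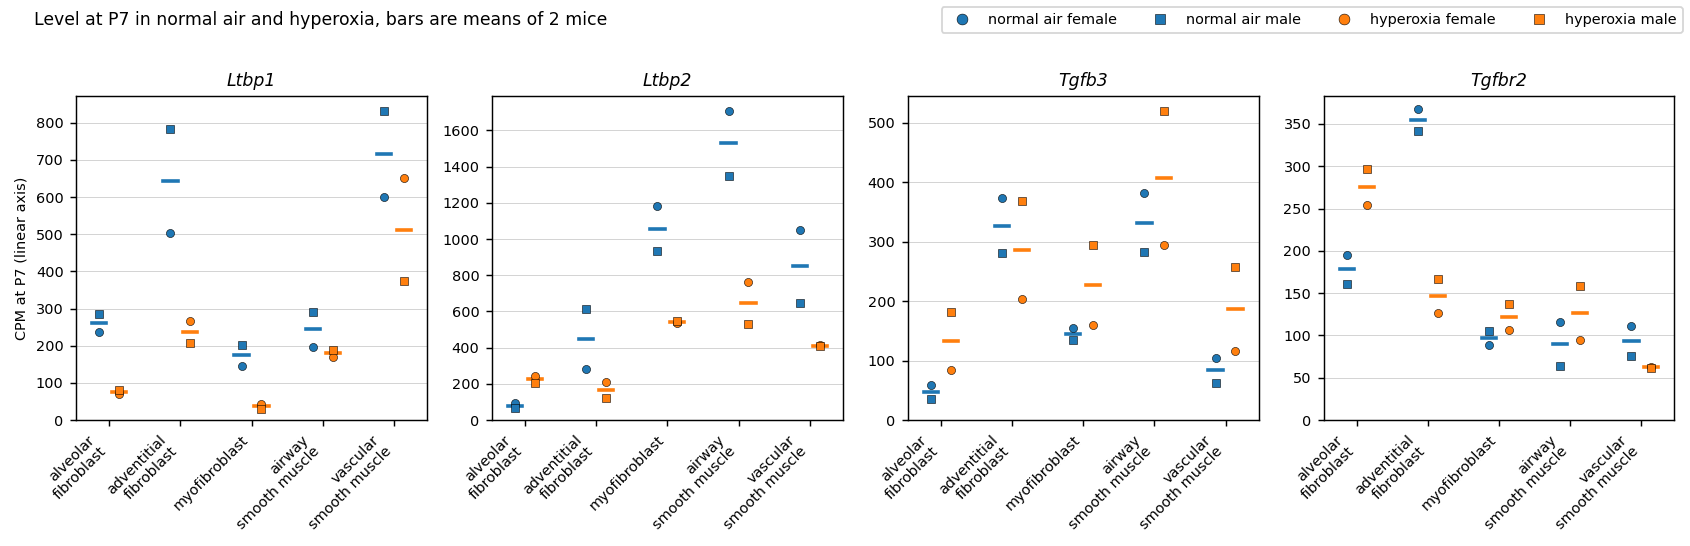
Level of Ltbp1, Ltbp2, Tgfb3 and Tgfbr2 (CPM, linear axis) at P7 in normal air (blue) and under hyperoxia (orange) in 5 cell classes, with circles for females, squares for males and bars at the mean of 2 mice. Ltbp1 of myofibroblasts lies at 146 and 201 CPM in normal air and at 44.2 and 30.2 under hyperoxia, and Ltbp2 lies higher under hyperoxia in alveolar fibroblasts and lower in airway smooth muscle.

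Ltbp2 lay on opposite sides in different classes. In alveolar fibroblasts it was 91.6 and 64.0 CPM in normal air and 244 and 206 under hyperoxia, without overlap (1.41, SE 0.552, unadjusted p = 0.034, adjusted p = 1.0 with edgeR and 0.00523 with DESeq2). In airway smooth muscle it was 1706 and 1350 against 763 and 532, also without overlap (-1.26, SE 0.331, unadjusted p = 0.004, adjusted p = 1.0). Vascular smooth muscle (-1.27, unadjusted p = 0.023), adventitial fibroblasts (-1.29) and myofibroblasts (-1.03) had negative fitted values too. The share of thinned alveolar fibroblasts with an Ltbp2 read was 25.2% and 25.4% in normal air and 57.9% and 64.3% under hyperoxia, and the median number of reads in such a cell 17 and 10 against 30 and 26. Genes per cell were higher in the hyperoxia mice, and the share of alveolar fibroblasts with an Ltbp4 read was also higher (92.3% and 94.6% against 77.1% and 59.4%) although the CPM of Ltbp4 overlapped between the groups. The part of genes per cell in these shares was not tested.

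Whether hyperoxia acted unequally on the classes was tested by the interaction term of a fit over all 5 classes, blocked on mouse. Ltbp2 had the smallest p of the members (2.81e-04, adjusted p = 0.1), followed by Ltbp1 (4.35e-04, adjusted p = 0.109), Tgfb3 (7.91e-04, adjusted p = 0.151) and Tgfbr2 (0.00114, adjusted p = 0.173), so that 0 of 10 passed with edgeR, beside 0.106% of all genes. DESeq2 passed these 4 genes, beside 5.45% of all genes. Without the P7 female in normal air, edgeR gave Ltbp2 an adjusted p of 0.0399 and Tgfbr3 one of 0.0457, in a fit that holds 1 mouse in normal air and takes its spread from the hyperoxia mice, so that these values are not read as calls.

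Of the receptors, Tgfbr2 in adventitial fibroblasts was 367 and 342 CPM in normal air and 126 and 167 under hyperoxia, without overlap (-1.47, SE 0.331, unadjusted p = 0.001, adjusted p = 0.431 with edgeR and 0.00709 with DESeq2). In alveolar fibroblasts Tgfbr2 was 196 and 161 against 254 and 297 (0.50). Tgfbr3 in adventitial fibroblasts was 78.1 and 132 against 46.0 and 49.2 (-1.29, SE 0.383, unadjusted p = 0.007, adjusted p = 0.621). Tgfbr1 lay lower under hyperoxia, without overlap of the mice and short of the threshold, in 3 classes. It was 48.3 and 28.0 CPM against 17.9 and 7.64 in adventitial fibroblasts (-1.76, SE 0.977, adjusted p = 0.652), 29.9 and 31.6 against 14.5 and 14.3 in myofibroblasts (-1.13, SE 0.813, adjusted p = 0.893) and 44.6 and 45.3 against 25.9 and 27.1 in airway smooth muscle (-0.78, SE 0.680, adjusted p = 1.0). Its mice overlapped in alveolar fibroblasts and in vascular smooth muscle. Of the other LTBPs, Ltbp4 in adventitial fibroblasts was 786 and 665 against 566 and 465 (-0.68, unadjusted p = 0.040), and Ltbp3 lay lower without overlap in airway smooth muscle alone (319 and 270 against 148 and 217, adjusted p = 1.0). Tgfb1 had a mean of 1.02 CPM in normal air and 6.57 under hyperoxia in myofibroblasts, the highest mean of the 5 classes (2.51, SE 2.33, adjusted p = 0.929). The ligand Tgfb3 in alveolar fibroblasts was 58.7 and 34.8 against 84.3 and 181 (1.36, unadjusted p = 0.115), and Tgfb2 171 and 177 against 207 and 219. In myofibroblasts Tgfb3 was 155 and 135 against 159 and 294, and in airway smooth muscle 382 and 282 against 295 and 520, where the mice overlapped. Members without overlap were 4 higher and 2 lower in alveolar fibroblasts (43.4% of all genes did not overlap), 0 and 6 in adventitial fibroblasts (45.4%) and 4 and 5 in myofibroblasts (46.7%). They were 0 and 6 in airway smooth muscle (36.2%) and 2 and 2 of 9 in vascular smooth muscle (36.1%).

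Mesothelial markers, 3 of 3 in the table and led by Msln (432 and 422 CPM) under hyperoxia, moved with the adventitial comparison. In the early adventitial subtype alone, cells with at least 10 CPM over those 3 markers were left out, a setting chosen after seeing the data. This left 47 and 55 cells of the P7 mice and 102 and 107 of the hyperoxia mice. Among these, Ltbp1 was 483 and 775 CPM against 243 and 172, where all cells of that subtype gave 465 and 775 against 266 and 208. Tgfbr2 was 386 and 344 against 128 and 175, Ltbp2 314 and 613 against 223 and 131, and Ltbp4 763 and 666 against 586 and 484. None of the 4 overlapped. The values of Tgfbr1 and Tgfbr3 in this setting are not given. The hyperoxic fibroblasts, a subtype of 55 cells in the male alone and all from 1 plate, held 161 CPM of Tgfb2, 143 of Tgfb3, 223 of Tgfbr2, 54.7 of Ltbp1, 157 of Ltbp2 and 247 of Ltbp4, with no replicate.

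Other genes of the pathway were counted in 3 lists. Of 12 genes of signal transduction and feedback (SMADs, SMURFs, Ski, Skil, Bambi, Eng, Acvrl1, Zfyve9), 16 of latency and activation (integrins, Thbs1, Lrrc32, Nrros, fibrillins, Fn1, Emilin1, proteases) and 14 target genes, 0 passed under hyperoxia in any of the 5 classes or in the interaction. In the interaction 0, 3 and 6 of them had an unadjusted p under 0.05, counts not set beside the share of all genes. In airway smooth muscle from P7 to P21, Thbs1 (2.02), which activates latent TGF-beta, and the transcription factor Junb (2.61) rose, while the fibrillin Fbn2 (-9.38), the matricellular protein Postn (-4.44) and Tgfbi (-3.20) fell. That was 2 of 15 tested latency genes and 3 of 13 tested targets, beside 1.13% of all genes. Eln, the elastin gene, rose in alveolar fibroblasts from P7 to P21 (3.21) and was the only gene of the 3 lists to pass there. In pericytes fibronectin Fn1 (-8.36) and actin Acta2 (-4.81) fell over the same step. Calls in fibroblasts also included lower Postn and Acta2 in adventitial fibroblasts from P7 to P21, beside 0.124% of all genes. From E18.5 to P1, Lox was called lower in adventitial fibroblasts (beside 0.17%). Over that step alveolar fibroblasts had lower Lox and higher Smad4 (beside 6.16%).

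Between P7 subtypes, 2 of 12 signal genes (Eng and Smad3), 4 of 16 latency genes (Fn1, Fbn1, Emilin1 and Thbs1) and 9 of 14 targets passed the F test, beside 7.76% of all genes. The targets include contractile and collagen genes, and the subtype names rest on the same cells. The count of targets is therefore no measure of a response to TGF-beta. Early adventitial fibroblasts, which had the highest Tgfbr2 and Ltbp4, also had more Fn1 (1.72), Fbn1 (1.28) and Lrrc32 (6.63), a membrane anchor of latent TGF-beta, than the mean of the others. Of the targets, 6 were higher in them, among them Col1a1 (3.94) and Postn (2.63), and the contractile genes Tagln (-3.74) and Acta2 (-2.50) were lower. Pericytes, which lacked Ltbp1 reads in most cells, had less Emilin1 (-4.41), Thbs1 (-5.65), Fn1 (-2.69), Smad3 (-7.58), Skil (-2.15) and Itgb8 (-12.3), the last a fitted value at low counts, and more of the integrin Itgav (1.99) and of Eng (1.60). Of the targets, 7 passed in pericytes: Postn was higher (4.68), and the 6 others were lower, namely the collagens Col1a1 (-3.19) and Col1a2 (-1.63), Lox (-5.17), Eln (-8.80), Tgfbi (-5.35) and Pmepa1 (-3.77).

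The genes whose mean log2(CPM + 1) over 30 combinations of subtype and group correlated best with a member, among 9390 genes, were given as a description, since these profiles share libraries and depth. Ltbp1 was most like Loxl1 (Pearson's r = 0.90) and Adamts2 (0.89), Ltbp2 like Gpc4 (0.84) and Mical2 (0.84), Ltbp3 like Smim14 (0.82) and G6pc3 (0.79), and Ltbp4 like Gas1 (0.85) and Gsn (0.83). Tgfb2 was most like Cald1 (0.74) and Pdcl3 (0.73), Tgfb3 like Kazald1 (0.89) and Ptgfrn (0.89), and Tgfb1 like Trim39 (0.74) and Ctbp2 (0.71). Of the receptors, Tgfbr1 was most like Zfp451 (0.82) and Rgmb (0.80), Tgfbr2 like Mmp19 (0.84) and Clec3b (0.81), and Tgfbr3 like Pros1 (0.82) and Aldh1a1 (0.78). Among the members themselves, Tgfbr2 and Ltbp4 ran most closely together (0.78), Tgfb2 ran with Ltbp2 (0.60) and against Ltbp4 (-0.74) and Tgfbr2 (-0.65), and Tgfb3 ran with Tgfbr1 (0.69).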

How the data were processed

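The authors deposited whole-number read counts per gene and cell, not normalized. Per the submitters' processing notes, the tools were STAR 2.5.2b and HTSeq 0.10, and the build named there is GRCh38, a human assembly, although the cells are from mice. How isoforms, overlapping genes and strand were counted is not given in the sources used here. No doublet caller was run. Mouse, age, treatment and subtype came from the labels. All 5480 cells entered, 5409 of which the titles place in the mesenchymal sort.

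Counts were summed per mouse and class (at least 10 cells) and compared by the two-sided quasi-likelihood test of edgeR 4.0.16 (R 4.3.3, TMM, filterByExpr, Benjamini-Hochberg over all genes, threshold 0.05), with a term for sex between ages and under hyperoxia and with the mouse as a block between subtypes and in the interaction. The filter removed Tgfb1 in vascular smooth muscle. DESeq2 1.42.0 was an alternative. Exon lengths came from GENCODE M21. Shares of cells with a read used cells thinned to 100000 reads, which left out 168 cells. All 10 listed genes were to be named in every class, and pathway genes only where called or where a comparison turns on them. The members and lists were chosen with earlier results of these data known. The scripts were tested on simulated data.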

Additional observations from a re-analysis of the deposited data

How the results depend on the processing

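Of 455 recomputed values of named tests, 412 kept their direction and side of the threshold, 36 lost and 7 gained a call, and 0 reversed. Between ages the count of member tests past the threshold was 5. It was 22 with DESeq2 and 12 with cells thinned to 100000 reads, which both held all 5, 3 with only the mice of the contrast, and 1 to 6 when each mouse was left out in turn, 1 without any 1 of the 4 mice of P7. Under hyperoxia the count was 0, against 4 with DESeq2, 1 with only the mice of the contrast and 0 to 1 when each mouse was left out. For the interaction it was 0, against 4 with DESeq2 and 0 to 2 when each mouse was left out. Between subtypes it was 14 of 40, against 26 with DESeq2, and 14 to 20 under the other settings, all of which but one held the same 14 calls. The exception, E18.5 without early alveolar fibroblasts, was chosen after seeing the data and gave 16 calls, of which 13 were shared. These counts stand without the share of all genes that passed under the same setting, and are not read as results about the members. DESeq2 also passed a larger share of all genes in the interaction. The cause of the differences between settings was not tested. No analysis paired between ages, or between hyperoxia and normal air, was possible because every group holds different mice, which share no replicate number. Subtypes of the same mouse were compared with the mouse as a block. Leaving out a mouse was not run between subtypes, where 1 mouse leaves no residual degrees of freedom for the block. Leaving out a mouse leaves 1 in its group, which is assumed to vary like the others. The limit set by depth was not compared between genes.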
